A study of Mus musculus with 4 samples.

Results

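The choline transporter-like genes are the 5 members of the mouse Slc44a family, Slc44a1 to Slc44a5, taken by symbol from 2 deposited tables that each list 22328 genes. All 5 were found in both tables. Poly(A)-selected RNA came from 4 samples, each sequenced as 1 library in paired-end mode. F1m-GCS was the hippocampus of offspring whose mothers ate a diet with 5 g/kg choline chloride between embryonic day 9 and birth, and F1m-CON that of offspring whose mothers ate 1.1 g/kg. After birth both groups ate a basal diet, and behaviour was tested at 2 months of age. The sources used here give neither strain nor sex, nor whether a library holds 1 animal or a pool. HT22 SUP and HT22 CON were cultures of HT22, an immortalised mouse hippocampal neuronal line, kept for 48 h with choline chloride at 70 µM in SUP and at 5 µM in CON, in a medium that also held 10% serum. With 1 library in each group, differences between libraries have no replicate check, and intervals are 95% intervals of counting error only. Reads counted in genes numbered 30265820 in F1m-GCS, 31175015 in F1m-CON, 13192007 in HT22 SUP and 18305096 in HT22 CON.

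Choline carries a fixed positive charge and crosses membranes mainly through transport proteins. Inside the cell it is phosphorylated on the way to phosphatidylcholine, oxidised to betaine, which feeds methyl groups to methionine, or, in cholinergic neurons, acetylated to acetylcholine. The Slc44a proteins carry choline independently of sodium and with intermediate affinity, in contrast to Slc5a7, the high-affinity transporter of cholinergic nerve endings. Slc44a1, also called CTL1, is the best studied of them and sits in the plasma membrane and in mitochondria. Slc44a2, or CTL2, is known from neutrophils, platelets, mitochondria and the inner ear. Slc44a4 takes up thiamine pyrophosphate in human colon, and the substrates of Slc44a3 and Slc44a5 are less settled.

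The members lie apart in the mm10 genome. Slc44a1 (ENSMUSG00000028412) spans chr4:53440413-53622478 on the plus strand, Slc44a2 (ENSMUSG00000057193) chr9:21337828-21355025 on the plus strand and Slc44a4 (ENSMUSG00000007034) chr17:34914466-34930436 on the plus strand. Chromosome 3 holds Slc44a3 (ENSMUSG00000039865) at 121459529 to 121532344 on the minus strand and Slc44a5 (ENSMUSG00000028360) at 153973436 to 154271722 on the plus strand. Their coding lengths in the tables are close to each other, between 1971 and 2157 bases, so order by reads and order by level per length hardly differ. No word of 25 bases was shared between the GENCODE M21 transcripts of any pair of members, so the counting could not split long exact matches among them. Transcripts on the opposite strand share 310 exon bases with Slc44a1, 349 with Slc44a3 and 113 with Slc44a5. The sources used here do not say whether counting used strand, and reads in those stretches cannot be told apart from reads of the opposite strand.

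The sequence before the start is shown for the 3 members that carried nearly all family reads, because these genes differ in where they are read and in their promoters. Each line gives 250 bases 5′ to 3′ that end at the base before a RefSeq transcription start in GRCm38.p6, with both RefSeq starts of Slc44a2 and the more upstream of 2 neighbouring starts of Slc44a1. Capitals mark GC boxes, the letters GGGCGG or their reverse complement.
Slc44a1, chr4:53440163-53440412, plus strand: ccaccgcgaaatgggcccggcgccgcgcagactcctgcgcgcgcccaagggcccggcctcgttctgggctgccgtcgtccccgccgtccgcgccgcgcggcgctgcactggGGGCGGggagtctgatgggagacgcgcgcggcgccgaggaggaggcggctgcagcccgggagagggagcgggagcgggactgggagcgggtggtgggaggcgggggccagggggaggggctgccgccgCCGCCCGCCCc
Slc44a2 upstream start, chr9:21320469-21320718, plus strand: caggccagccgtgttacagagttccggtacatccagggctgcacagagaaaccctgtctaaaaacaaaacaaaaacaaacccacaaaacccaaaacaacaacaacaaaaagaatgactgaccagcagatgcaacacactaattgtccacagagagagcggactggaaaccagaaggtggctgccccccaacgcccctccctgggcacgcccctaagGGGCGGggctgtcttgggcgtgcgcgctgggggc
Slc44a2 downstream start, chr9:21337578-21337827, plus strand: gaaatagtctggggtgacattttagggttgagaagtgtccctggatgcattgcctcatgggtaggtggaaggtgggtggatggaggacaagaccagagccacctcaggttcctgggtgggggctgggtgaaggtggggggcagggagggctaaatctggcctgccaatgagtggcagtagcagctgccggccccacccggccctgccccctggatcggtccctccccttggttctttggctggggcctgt
Slc44a5, chr3:153973186-153973435, plus strand: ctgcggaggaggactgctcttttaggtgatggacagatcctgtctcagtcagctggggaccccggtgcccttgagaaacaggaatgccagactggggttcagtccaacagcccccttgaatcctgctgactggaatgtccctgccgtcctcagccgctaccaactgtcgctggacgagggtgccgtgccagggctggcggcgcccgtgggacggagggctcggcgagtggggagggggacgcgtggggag

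The Slc44a1 window is a dense CpG stretch with 38 CG dinucleotides, percentile 98.3 of 32851 RefSeq promoter windows of this length, whose median is 6. It holds 3 GC box matches, a pair of which overlap, against at least 1 in 32.7% of all windows. The upstream Slc44a2 window has 9 CG dinucleotides and 1 GC box, and the downstream one 3 and 0. The Slc44a5 window has 15 CG dinucleotides and 0 GC boxes. None of the 4 windows holds the TATA box letters TATAAA, found in 12.4% of all windows on either strand, or the cAMP response element letters TGACGTCA, found in 1.55%. The deposited span of Slc44a2 begins at the downstream start, while GENCODE M21 begins the gene at 21320698, so a first exon at the upstream start lies outside the span given in the tables.

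In the hippocampus 3 of the 5 genes carried nearly all family reads, and in the cell line 2. Levels are given as RPKM, in which reads are divided by the coding length in kilobases and by 1e6 uniquely mapped reads. Slc44a1 was the first in the hippocampus, at 48.0 RPKM (46.5 to 49.5) on 3965 reads in F1m-GCS and 50.8 RPKM (49.2 to 52.3) on 4296 reads in F1m-CON. Slc44a5 came second, at 24.6 RPKM (23.5 to 25.7) on 2009 reads in F1m-GCS and 23.7 RPKM (22.7 to 24.8) on 1983 reads in F1m-CON. Slc44a2 came after it, at 19.0 RPKM (18.0 to 19.9) on 1541 reads in F1m-GCS and 18.2 RPKM (17.3 to 19.1) on 1514 reads in F1m-CON. The order of these 3 genes was the same in both hippocampus libraries and each step was larger than counting error. Per length, Slc44a1 stood 1.95-fold (1.85 to 2.06) above Slc44a5 in F1m-GCS and 2.14-fold (2.03 to 2.26) in F1m-CON. Slc44a5 stood 1.30-fold above Slc44a2 in both, with intervals of 1.21 to 1.39 in F1m-GCS and 1.22 to 1.39 in F1m-CON.

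In HT22 cells Slc44a2 led. It had 39.7 RPKM (37.9 to 41.6) on 1760 reads in SUP and 59.5 RPKM (57.4 to 61.6) on 3170 reads in CON. Slc44a1 followed with 29.7 RPKM (28.2 to 31.4) on 1341 reads in SUP and 41.9 RPKM (40.2 to 43.6) on 2270 reads in CON. Slc44a5, one of the 3 main genes of the tissue, had 2 reads in SUP and 1 read in CON. Per length, the level of Slc44a1 was 0.749 times that of Slc44a2 (0.697 to 0.805) in SUP and 0.704 times (0.667 to 0.743) in CON. In the hippocampus the same ratio was 2.53 (2.38 to 2.69) in F1m-GCS and 2.79 (2.63 to 2.96) in F1m-CON.

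**Figure D1:**
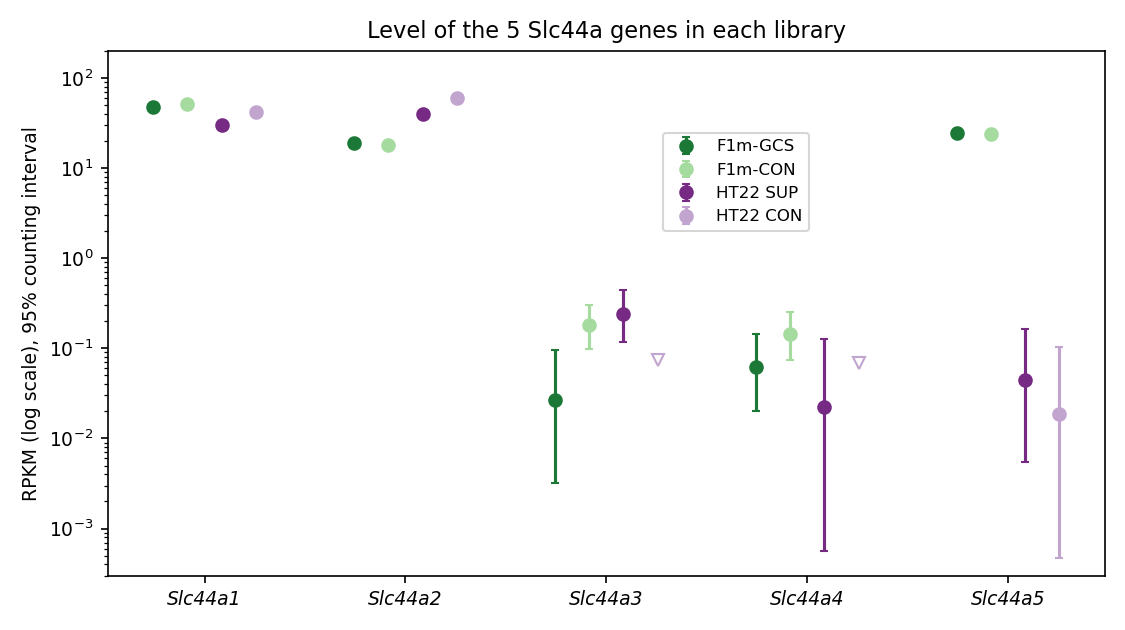
Deposited RPKM of the 5 Slc44a genes on a log axis, 1 point per library in the order F1m-GCS, F1m-CON, HT22 SUP and HT22 CON, with 95% Poisson intervals of the read counts; open triangles mark libraries with 0 reads, drawn at the upper bound of the interval. Slc44a1 and Slc44a2 lie between 18.2 and 59.5 RPKM in all 4 libraries, Slc44a5 does so only in the hippocampus libraries, and Slc44a3 and Slc44a4 lie below 0.25 RPKM throughout.

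Slc44a3 and Slc44a4 were near the limit of detection everywhere. Slc44a3 had 2 reads in F1m-GCS, 14 in F1m-CON, 10 in HT22 SUP and 0 in HT22 CON. Slc44a4 had 5 reads in F1m-GCS, 12 in F1m-CON, 1 in HT22 SUP and 0 in HT22 CON. A count of 0 in HT22 CON allows up to 3 reads, or 0.164 counts per 1e6 gene reads. The order of these 2 genes was not resolved in F1m-GCS or F1m-CON, where the interval of their ratio per length included 1, nor in HT22 CON, where both had 0 reads. In HT22 SUP, Slc44a3 stood 5.41-fold (1.15 to 50.8) above Slc44a5, which did not differ from Slc44a4 beyond counting error.

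Together the 5 genes summed to 91.7 RPKM in F1m-GCS, 93.0 RPKM in F1m-CON, 69.8 RPKM in HT22 SUP and 101 RPKM in HT22 CON. Slc44a1 made up 52.4% of the sum in F1m-GCS and 54.6% in F1m-CON. Slc44a5 made up 26.8% in F1m-GCS and 25.5% in F1m-CON, and Slc44a2 made up 20.7% in F1m-GCS and 19.6% in F1m-CON. In HT22 cells Slc44a2 made up 56.9% in SUP and 58.7% in CON, and Slc44a1 nearly all of the rest, with 42.6% in SUP and 41.3% in CON. Slc44a1 ranked among the better expressed genes in every library, from percentile 81.3 of all genes by RPKM in HT22 SUP to 86.3 in F1m-CON. Slc44a2 stood at percentiles 85.2 in SUP and 87.5 in CON, against 71.3 in F1m-GCS and 70.7 in F1m-CON.

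**Figure D2:**
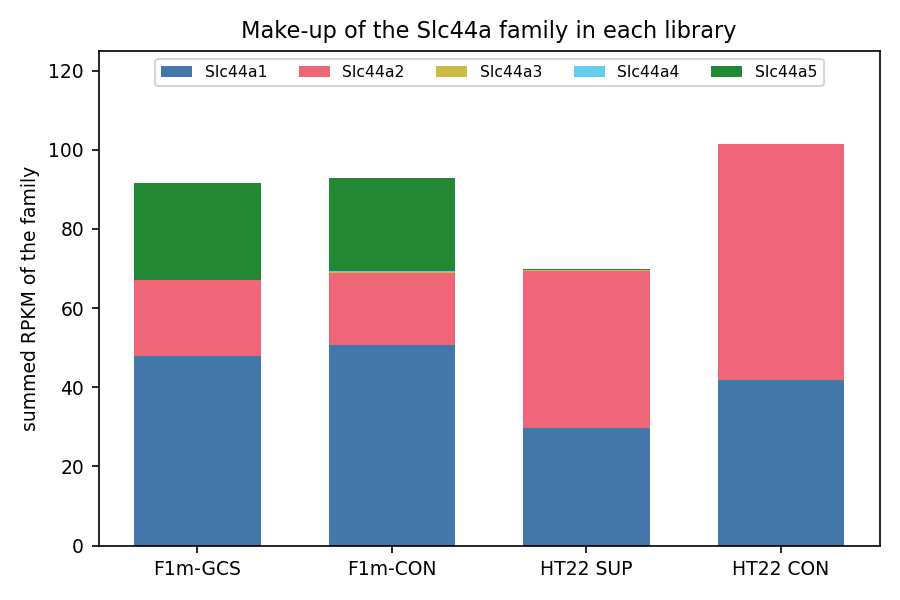
Summed deposited RPKM of the Slc44a family in each library, stacked by gene. Slc44a1 is the largest segment in F1m-GCS and F1m-CON, with 52.4% and 54.6%, and Slc44a2 in HT22 SUP and HT22 CON, with 56.9% and 58.7%; the Slc44a5 segment is seen only in the hippocampus libraries.

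The line and the tissue come from separate tables, so their levels are set side by side as counts per 1e6 gene reads, without a test. Slc44a2 had 133 in HT22 SUP and 173 in HT22 CON, against 50.9 in F1m-GCS and 48.6 in F1m-CON. The lowest HT22 library was thus 2.62-fold above the highest hippocampus library. Slc44a1 lay within a narrow range but was lower in both HT22 libraries, with 102 in HT22 SUP and 124 in HT22 CON, against 131 in F1m-GCS and 138 in F1m-CON. Slc44a5 had 0.152 in HT22 SUP and 0.0546 in HT22 CON, against 66.4 in F1m-GCS and 63.6 in F1m-CON. The lowest hippocampus library was 420-fold above the highest HT22 library. A tissue holds many cell types and the line 1, and in bulk RNA fewer cells of a type and less RNA per cell cannot be told apart.

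The few Slc44a5 reads in HT22 cells amounted to 0.233% of the mean hippocampus level in SUP and 0.0841% in CON. Another 664 genes were picked as abundant in the tissue, with 50 or more counts per 1e6, and over 100-fold lower in the line. As a set they stood at 0.830% of their tissue level in SUP and 0.345% in CON, a SUP over CON ratio of 2.40. Their low percentages follow from how they were picked. Their bearing on the Slc44a5 reads was not tested. Of 10 neuron markers, 8 were measured in HT22 cells, among them Snap25 with 545 reads in SUP and 331 in CON. The summed level of all 10 was 351 counts per 1e6 in SUP and 299 in CON, against 10242 in F1m-GCS and 10374 in F1m-CON. In HT22 cells 1 gene, Eno2, carried most of that sum, with 2370 of 4618 reads in SUP and 4042 of 5495 in CON. Rbfox3, a defining marker of mature neurons, had 33 reads in SUP and 15 in CON, so the line did not carry the full marker set of neurons. All 10 were measured in the hippocampus.

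In the hippocampus the 3 expressed members differed little between F1m-GCS and F1m-CON. Genes with 50 or more reads in either library of a pair counted as measured. Those that differed by 1.5-fold or more, with 0 outside the interval of the log2 ratio, counted as higher or lower. Of the 3 measured members 0 passed that rule, where 2.70% of 13392 measured genes did, 1.80% higher and 0.904% lower in F1m-GCS. Slc44a1 had a log2 ratio of F1m-GCS over F1m-CON of -0.06 (-0.12 to 0.0011). Slc44a2 had 0.08 (-0.02 to 0.18) and Slc44a5 0.07 (-0.02 to 0.16). All 3 intervals included 0 and lay inside 1.5-fold. The median of all measured genes was -0.0042. Summed over the 5 members, the log2 ratio was -0.0017 (-0.05 to 0.04).

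Slc44a1 transcripts are poor in GC, with 41.7% at percentile 15.6 of genes. With the median of genes of like coding length subtracted, its log2 ratio was -0.09 (-0.15 to -0.03). With the median of genes of like coding length and GC subtracted, the log2 ratio of Slc44a1 was -0.28 (-0.35 to -0.22), against 0.10 (-0.0017 to 0.20) for Slc44a2 and 0.02 (-0.07 to 0.11) for Slc44a5. The Slc44a1 interval also fell just below 0 with other scalings, at -0.07 (-0.14 to -0.01) with total counts and -0.06 (-0.13 to -0.00035) with DESeq2 size factors. Whether its interval included 0 therefore depended on the scaling and on the subtraction of length and GC medians. Subtracting both also moved the Slc44a1 log2 ratio outside the interval first given for it. The intervals of Slc44a2 and Slc44a5 included 0 under each of these settings. Oligodendrocyte markers, genes of the myelin-forming cells, summed to 6631 counts per 1e6 in F1m-GCS and 6877 in F1m-CON, with 7 of 10 below 0 and a median of -0.07. Microglia markers had 7 of 8 below 0 and a median of -0.11, astrocyte markers 6 of 8 and -0.06, and neuron markers 7 of 10 and -0.02. Endothelial markers had 1 of 8 below 0 and a median of 0.08. None of these lists had a gene past the 1.5-fold rule in hippocampus, and their part in the Slc44a1 value was not tested.

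The low members both had fewer reads in F1m-GCS. For Slc44a3 the ratio of F1m-GCS to F1m-CON was 0.148 (0.0164 to 0.646), on 2 reads in F1m-GCS and 14 in F1m-CON. For Slc44a4 it was 0.433 (0.119 to 1.32), on 5 reads in F1m-GCS and 12 in F1m-CON. Only the Slc44a3 interval excluded 1, and neither gene reached the 50 reads needed to be measured. Markers of the choroid plexus, the epithelium that secretes cerebrospinal fluid, stand beside this. All 10 had log2 ratios below 0, with a median of -0.49 and sums of 1644 counts per 1e6 in F1m-GCS and 1918 in F1m-CON, and Aqp1, Kcnj13 and Steap1 were lower in F1m-GCS by the 1.5-fold rule. No choroid plexus marker was at 0 in either library. Their part in the values of Slc44a3 and Slc44a4 was not tested.

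In HT22 cells both expressed members were lower at the higher choline concentration, by less than 1.5-fold. Slc44a2 had 1760 reads in SUP and 3170 in CON, a log2 ratio of -0.36 (-0.45 to -0.28), or a difference of -22.3%. Slc44a1 had 1341 reads in SUP and 2270 in CON, a log2 ratio of -0.27 (-0.37 to -0.18), or a difference of -17.3%. Both intervals excluded 0, and neither gene reached 1.5-fold, so 0 members passed the rule, where 8.02% of 10854 measured genes did, 5.13% higher and 2.89% lower in SUP. Slc44a2 stood at percentile 10.5 of measured genes and Slc44a1 at 17.9, where the median gene had -0.05. With like coding length and GC subtracted, Slc44a2 had -0.36 (-0.45 to -0.28) and Slc44a1 -0.16 (-0.26 to -0.07). Summed over the family, the log2 ratio was -0.32 (-0.38 to -0.26). Of the 8 measured neuron markers, 6 were higher in SUP (Snap25, Syt1, Nefl, Stmn2, Camk2a and Slc17a7) and Tubb3 was lower. The oligodendrocyte marker Mbp and the astrocyte marker Slc1a2 were also higher in SUP. The 2 measured microglia markers and the 2 measured choroid plexus markers did not pass the rule there. None of the 8 endothelial markers had enough reads to be measured, and together they had 64 reads in SUP and 31 in CON. The part of these markers in the values of Slc44a1 and Slc44a2 was not tested.

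These ratios use reads counted in genes as the total. The deposited RPKM use uniquely mapped reads, of which 63.1% fell in genes in SUP and 72.9% in CON, and so show a wider gap, with 39.7 against 59.5 RPKM for Slc44a2. In the authors' deposited table the log2 fold change was -0.22 for Slc44a2 and -0.17 for Slc44a1, with false discovery rates of 5.43e-05 and 0.0122. Those values are nearer to 0 than the ratio of the SUP and CON columns. Over measured genes the deposited fold changes differed by a median of 0.08 from an edgeR exact test of SUP over CON, and by a median of 0.02 from one of the SUP column over the sum of both columns. They are therefore not read here as SUP over CON. No replicate libraries stand behind the deposited rates. In hippocampus the authors' deposited table gives log2 fold changes of -0.06 for Slc44a1, 0.08 for Slc44a2 and 0.07 for Slc44a5, with false discovery rates of 0.361, 0.479 and 0.454. It gives -2.68 for Slc44a3, with a rate of 0.0333, on 2 reads in F1m-GCS and 14 in F1m-CON.

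**Figure D3:**
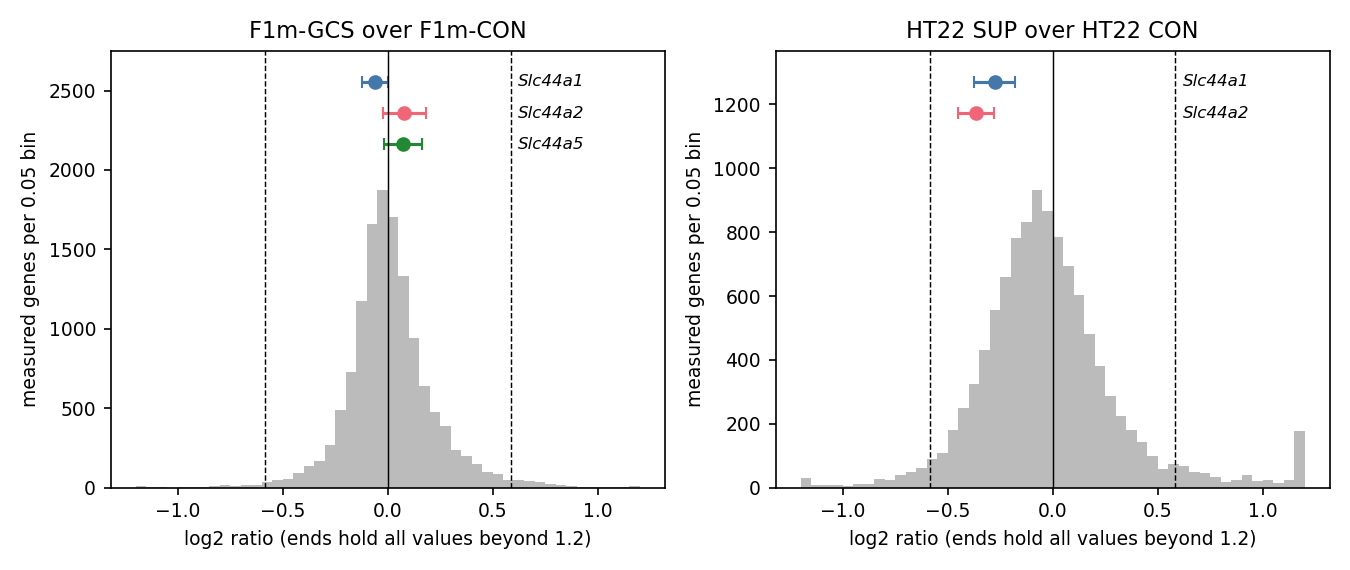
Log2 ratios of the measured Slc44a genes, as points with 95% counting intervals, above a histogram of all measured genes in each comparison; dashed lines mark 1.5-fold and the end bins hold all values beyond 1.2. In the hippocampus the 3 intervals reach or cross 0, and in HT22 cells Slc44a1 at -0.27 and Slc44a2 at -0.36 lie left of 0 and inside the dashed lines.

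Slc44a3 ran the other way in HT22 cells, with 10 reads in SUP and 0 in CON. Against the limit of 3 reads in CON it was at least 4.66-fold higher in SUP, with the counting error of its own 10 reads left out. The lower end of the counting interval of the ratio, which includes that error, was 3.14-fold. Of 7165 genes with 0 reads in CON, 10 had at least 10 reads in SUP, which is the count of Slc44a3 itself, and Slc44a3 was among them. In the other direction, 7 of 7023 genes with 0 reads in SUP had at least 10 reads in CON. The oligodendrocyte marker Cldn11, with 12 reads in SUP and 0 in CON, was another of the 10 genes at 0 in CON. The neuron markers that were higher in SUP stand beside the Slc44a3 value, as do the 664 hippocampus genes, which were 2.40-fold higher there as a set. The part of these genes was not tested. The Slc44a3 level in SUP was 0.758 counts per 1e6 gene reads (0.364 to 1.39), against 0.0661 (0.0080 to 0.239) in F1m-GCS and 0.449 (0.246 to 0.753) in F1m-CON. The intervals of SUP and F1m-CON overlapped. For Slc44a5 the ratio of SUP to CON was 2.80 (0.146 to 165), on 2 reads and 1 read, and for Slc44a4 there was 1 read in SUP and none in CON, too few to give a direction.

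Most other choline uptake genes had few or no reads in HT22 cells. The list of 8 other uptake genes was chosen with earlier results of these data known, as were the 2 enzyme lists below. Slc5a7, the high-affinity transporter, had 20 reads in F1m-GCS, 21 in F1m-CON and 0 in both HT22 libraries. The organic cation transporter genes Slc22a2 and Slc22a3 had between 21 and 34 reads in the hippocampus libraries and at most 1 read in either HT22 library. Slc25a48, a mitochondrial choline carrier, had 1 read in each hippocampus library and 0 in HT22. Flvcr1, a plasma membrane protein that imports choline and was first known as a haem exporter, was the 1 gene of this list with at least 200 reads in all 4 libraries.

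Flvcr1 had 589 reads in F1m-GCS and 484 in F1m-CON, a log2 ratio of 0.34 (0.16 to 0.51). In HT22 cells it had 507 reads in SUP and 916 in CON, a ratio of -0.37 (-0.53 to -0.21), close to the values of Slc44a1 and Slc44a2 there. By level it reached 14.4 RPKM in SUP and 21.7 RPKM in CON, below both of those genes. Mfsd2a, which carries lysophosphatidylcholine across the blood-brain barrier, had 698 reads in F1m-GCS and 647 in F1m-CON and a ratio of 0.16 (0.0073 to 0.32). In HT22 cells Mfsd2a had 51 reads in SUP and 97 in CON, a ratio of -0.43 (-0.96 to 0.06). Flvcr2, a choline transporter of brain endothelium, had 96 reads in F1m-GCS and 112 in F1m-CON, a ratio of -0.17 (-0.58 to 0.24). Of the uptake list 3 genes were measured in hippocampus and 2 in HT22, 0 passed the 1.5-fold rule in either, and the medians were 0.16 and -0.40.

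Among 8 enzymes that use choline, 7 were measured in hippocampus with a median of -0.00077, and 6 in HT22 cells with a median of -0.11. None passed the 1.5-fold rule in either comparison. Chpt1, the cholinephosphotransferase that completes phosphatidylcholine, was farthest from 0 in both, at 0.29 (0.19 to 0.40) in hippocampus on 1635 reads in F1m-GCS and 1384 in F1m-CON, and at -0.26 (-0.39 to -0.12) in HT22 on 686 reads in SUP and 1146 in CON. Cept1, an enzyme of the same step, had 0.11 (-0.0012 to 0.22) in hippocampus. Chka, the choline kinase that phosphorylates choline after uptake, had 0.15 (0.07 to 0.24) in HT22 cells, on 1951 reads in SUP and 2453 in CON. It was the 1 measured enzyme of this list above 0 there, opposite to the transporters Slc44a1 and Slc44a2. Chat, which makes acetylcholine, had 1 read in F1m-GCS and 0 in the other 3 libraries.

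Among 8 enzymes that release choline or make it anew, all were measured in hippocampus with a median of 0.09, and 6 in HT22 cells with a median of 0.11. The butyrylcholinesterase gene Bche passed the 1.5-fold rule in hippocampus, with 302 reads in F1m-GCS and 179 in F1m-CON and a log2 ratio of 0.80 (0.54 to 1.08). Gpcpd1, which splits glycerophosphocholine, had 0.33 (0.27 to 0.40) on 4149 reads in F1m-GCS and 3418 in F1m-CON. In HT22 cells Pemt, which methylates phosphatidylethanolamine, had 0.41 (-0.0056 to 0.85) on 92 reads in SUP and 96 in CON, and the lysophospholipase gene Pnpla6 0.17 (-0.02 to 0.36). None passed the rule there. These medians stand beside -0.0042 for all measured genes in hippocampus and -0.05 in HT22 cells.

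**Figure D4:**
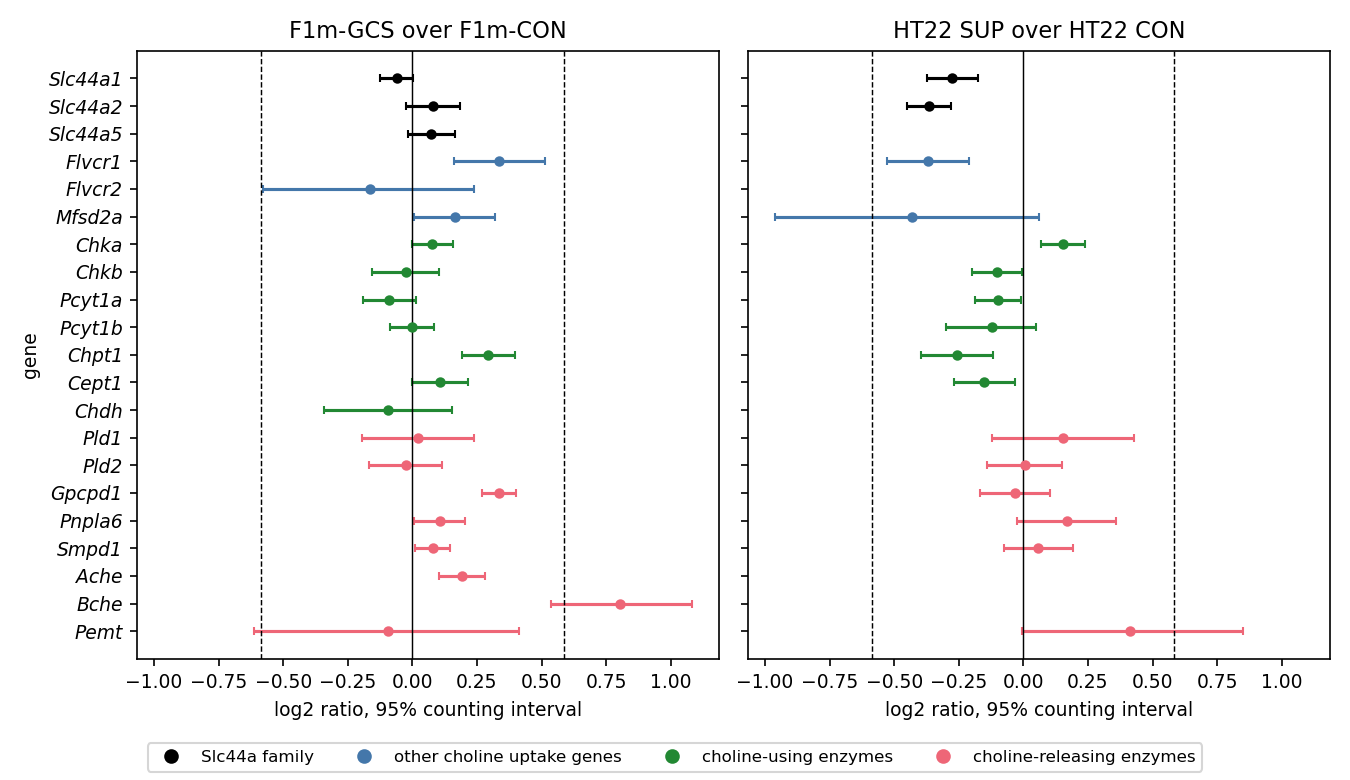
Log2 ratios with 95% counting intervals of the measured Slc44a genes and of the genes for other uptake, use and release of choline, in F1m-GCS over F1m-CON and in HT22 SUP over HT22 CON; dashed lines mark 1.5-fold. Bche in hippocampus, at 0.80, is the 1 gene beyond a dashed line, and in HT22 cells Slc44a1, Slc44a2 and Flvcr1 lie together between -0.37 and -0.27.

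The genes whose levels ran most like each member over the 4 libraries were taken by the distance between log2 counts per 1e6, centred on each gene's mean, among 13411 genes. For Slc44a1 these were Rnf145, Fdxacb1 and Dlat, at a distance of 0.03 each. Rnf145, the nearest of them, had 3933 reads in F1m-GCS, 4169 in F1m-CON, 1329 in HT22 SUP and 2243 in HT22 CON. For Slc44a2 they were Wipi1 at 0.04, Tigd3 at 0.05 and Lrig1 at 0.06. For Slc44a5 they were Amer3 at 0.06, Mapk8ip2 at 0.08 and Gpr123 at 0.09, each with at most 17 reads in either HT22 library. With 4 libraries such likeness is common for the first member, with 337 genes within 0.2 of Slc44a1, 126 within 0.2 of Slc44a2 and 13 within 0.2 of Slc44a5.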

How the data were processed

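Trim Galore trimming, TopHat2 alignment to mm10 (up to 2 mismatches, mapping quality 4 or more) and HTSeq counting were done by the authors, per the series' design text. The submitters' processing notes also list CASAVA 1.8. The deposited tables hold raw read counts per gene, and RPKM scaled to coding length and to the uniquely mapped reads, per the file headers. The deposited log2 fold changes, p-values and false discovery rates are the authors' edgeR values, and the authors called genes below 0.05 in both. Among protein-coding genes 99.8% of the deposited lengths are multiples of 3. In hippocampus the 3176 calls of the authors were the same genes that edgeR's exact test called with the coefficient of variation set to 0.01, run here only for that comparison.

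Library sizes were the reads in genes, scaled by TMM in edgeR 4.0.16 (R 4.3.3). Log2 ratios used a prior count of 2. Intervals are exact conditional (Clopper-Pearson) intervals of 2 counts, or exact Poisson intervals of 1 count. Reads are not independent molecules, so these cover counting error alone. With 1 library per group no test of conditions was made. The functions were tested on simulated counts. Members and lists were chosen with earlier results of these data known. Named are the members, listed genes past 1.5-fold, the 2 measured genes of each choline list with ratios farthest from 0, the 3 nearest profiles of each member, and further listed genes and Rbfox3 and Snap25, chosen after their values were seen. Some listed genes are not reported here by name. Flvcr1 and Flvcr2 were matched by gene ID, since the tables list them as Mfsd7b and Mfsd7c. GC came from the longest protein-coding GENCODE M21 transcript, found for 21096 genes. Alternatives were total counts, size factors from DESeq2 1.42.0, a prior of 0.25 or 10, a minimum of 10 or 200 reads, whole intervals beyond 1.5-fold, subtraction of the median of 10 groups by coding length, alone or with 5 groups by GC, and levels per gene reads. Python 3.11.15 and scipy 1.17.1 were used.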

Additional observations from a re-analysis of the deposited data

How the results depend on the processing

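No paired analysis was possible because each group held 1 library. Of 45 log2 ratios of the measured members under the alternatives, 43 stayed inside the interval of the reported value. Both exceptions were Slc44a1 with coding length and GC subtracted, at -0.28 in hippocampus and -0.16 in HT22 cells. The changed minimums of reads and the rule of whole intervals beyond 1.5-fold alter only which genes are measured or called. The ratio of a member could not move under these settings, so their values among the 45 are no check of it. Slc44a2 in HT22 cells lay between -0.38 and -0.32 under all 9 alternatives, with these settings included. With a minimum of 10 reads, 1 member passed 1.5-fold in each comparison, Slc44a3, lower in F1m-GCS and higher in HT22 SUP. Under that minimum, 417 of 15108 measured genes were higher and 242 lower in F1m-GCS. In HT22 SUP 1146 of 12580 were higher and 393 lower.

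Genes 1.5-fold higher in F1m-GCS numbered 417 with a minimum of 10 reads, 105 with 200, 36 with the whole interval beyond 1.5-fold and 146 with length and GC subtracted. Genes lower in F1m-GCS numbered 242, 12 and 13 under the first 3 of these. Genes higher in HT22 SUP numbered 1146, 267 and 329, and genes lower 131 with 200 reads and 47 with the whole interval. Under the last rule 0 other choline genes were higher in F1m-GCS. The cause was not tested, beyond fewer or more genes being counted by construction. The median of other uptake genes in hippocampus was -0.04 with 10 reads, and that of choline-using enzymes in HT22 cells 0.0045 with length and 0.02 with length and GC subtracted. All 8 alternative values of the shares of Slc44a1 in hippocampus and Slc44a2 in HT22 cells stayed within their counting intervals. Those per gene reads and kilobase equal the reported shares by construction, because the library total cancels. Only those not divided by length could differ. Depth limits Slc44a3 and Slc44a4, and Slc44a5 in HT22 cells, to a direction at most.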
